A study of Mus musculus with 2 samples.

Results

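The genes described here are the amino acid and sugar transporters of the solute carrier (SLC) superfamily that fall into the families SLC1, SLC2, SLC3, SLC5, SLC6, SLC7, SLC16 and SLC38. A gene was taken when its mouse symbol was that of a numbered member of one of these 8 families, except *Slc2a1*, *Slc2a3* and *Slc16a3*, which were left out. Of 88 such symbols in the annotation, 85 had a named probe on the array, among 20281 named genes in all. RNA came from 1 *Dullard*+/- and 1 *Dullard*-/- whole mouse embryo of the C57BL/6 strain at embryonic day (E) 7.5, a stage when gastrulation is under way, and each was hybridized to 1 array of 1 colour (Cy3). *Dullard*, also named *Ctdnep1*, encodes a phosphatase of the nuclear envelope. The study made a deletion allele and a *LacZ* allele of it and called embryos of either *Dullard*-/-, and the sources do not say which of them the array embryo carried. Both alleles were made in embryonic stem cells not of pure C57BL/6 origin, and the chimeras were crossed with C57BL/6 mice. No wild-type embryo was analysed here, so the *Dullard*+/- embryo is the reference of every difference.

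SLC proteins sit in the plasma membrane or in organelle membranes and move solutes either down their own gradient or coupled to sodium, chloride or protons. The SLC2 proteins (GLUTs) let hexoses pass by facilitated diffusion, and several SLC5 proteins take up sugars or myo-inositol together with sodium. Amino acids enter through SLC1, SLC6, SLC7 and SLC38 proteins, several SLC7 proteins work only as light chains bound to an SLC3 heavy chain, and SLC16 proteins (MCTs) carry lactate, pyruvate and related compounds. In the gastrulating embryo the visceral endoderm, an absorptive epithelium around the epiblast, is the main site of nutrient uptake from the mother.

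The single *Dullard* probe went the way of the labels, with signals of 672 (*Dullard*+/-) and 144 (*Dullard*-/-), 4.31-fold lower after scaling. The signal of 144 was still well above background. The deletion allele lacks every exon of the gene, so a probe to its transcript lies in the deleted part, while for the *LacZ* allele the place of the probe is not known here. Signals are the background-subtracted intensities of the scanner software in arbitrary units. Each signal was divided by the 75th percentile of the array (286 for *Dullard*+/-, 264 for *Dullard*-/-) and taken to the log2 scale. A log2 fold change is *Dullard*-/- over *Dullard*+/-, averaged over the probes of a gene that the software marked as well above background on both arrays. There is 1 embryo per genotype, so no difference has a replicate check, no test was run and no p-value is given. The ± after a log2 fold change is an error between spots. It was taken from the SD of the replicated probes nearest to the gene in signal. It is smaller where a gene has several spots or probes. The dimmest probes of 1 spot all have the same error of 0.29, whatever their signal. The measured probes of *Slc6a15*, *Slc2a6* and *Slc7a4* are among them. There the error does not follow the signal and may be too small. The ± covers the error of a spot. It covers neither the spread between embryos nor the disagreement between probes of a gene. Genes were counted by size, at 1.5-fold and 2-fold. All 8 markers of the epiblast and early mesoderm and all 15 of the visceral endoderm were well above background in both embryos.

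Of the 85 transporter genes, 58 (68.2%) were well above background on both arrays, against 72.8% of all named genes. Another 4 passed this limit on the *Dullard*+/- array alone, none on the *Dullard*-/- array alone, and 23 on neither. Over all genes 4.45% were above background on the *Dullard*+/- array alone and 0.749% on the *Dullard*-/- array alone. The share detected on both arrays was lowest in SLC6, with 8 of 17 genes. It was 9 of 15 in SLC7, 4 of 7 in SLC1, 8 of 11 in SLC5, 7 of 9 in SLC2, 9 of 11 in SLC38 and 11 of 13 in SLC16, and both SLC3 genes were detected. Among the SLC6 genes at background in both embryos were *Slc6a3*, the dopamine transporter, *Slc6a11* and *Slc6a12*, which take up GABA and related compounds, and *Slc6a19*, the main carrier of neutral amino acids in the intestine and kidney. In SLC7 they included *Slc7a11*, the cystine and glutamate exchanger, and *Slc7a2*, a carrier of cationic amino acids. In SLC2 and SLC5 they included *Slc2a9*, a urate carrier, and *Slc5a1*, the sodium and glucose cotransporter of the intestine.

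**Figure D1:**
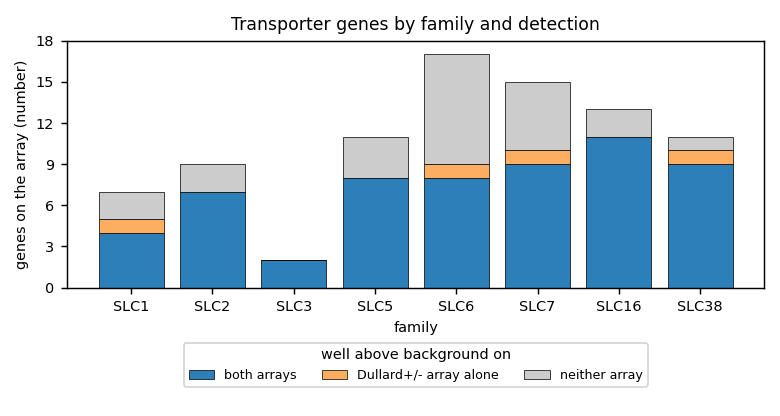
Number of transporter genes with a named probe (vertical axis) in each family (horizontal axis), split by whether any probe was well above background on both arrays, on the *Dullard*+/- array alone or on neither. SLC6 has 17 genes, 8 of them detected on both arrays, and SLC16 has 13, with 11 detected on both.

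The 4 genes above background on the *Dullard*+/- array alone were all dim. *Slc7a10*, a light chain that carries small neutral amino acids, had signals of 9.55 (*Dullard*+/-) and 1.68 (*Dullard*-/-). Set against the dimmest detected probe of the *Dullard*-/- array, this is at least 1.21-fold lower. *Slc1a1*, a neuronal and epithelial glutamate transporter, gave 8.29 and 6.66, at least 1.01-fold lower. For *Slc6a18* (6.56 and 4.32) and *Slc38a11* (7.08 and 3.14) the *Dullard*+/- signal lay below that limit, so no fold is given.

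Most transporter genes differed little between the embryos. Of the 58 measured on both arrays, 51 lay within 1.5-fold and 41 within 1.2-fold. Their median log2 fold change was 0.02, beside 0.01 over all 14770 measured genes, and 55.2% of them were higher in the *Dullard*-/- embryo, beside 52.0% of all genes. At least 1.5-fold higher were 4 genes (6.90%, against 3.92% of all genes): *Slc6a15*, *Slc2a6*, *Slc6a13* and *Slc7a4*. At least 1.5-fold lower were 3 genes (5.17%, against 3.37% of all genes): *Slc2a5*, *Slc16a1* and *Slc5a11*. Past 2-fold were *Slc6a15* and *Slc2a6* on the higher side (2 of 58, against 0.894% of all genes) and *Slc2a5* on the lower (1 of 58, against 0.765% of all genes). Counts this small do not show whether the shares of the set differ from those of all genes.

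The 7 genes past 1.5-fold were also dim. When all measured genes were ordered by signal and split into 4 bins of equal size, 21 of the transporter genes fell into the dimmest bin and 6 of those were past 1.5-fold, in a bin where 17.6% of all genes were. The next bin held 17 transporter genes, with *Slc6a13* past 1.5-fold, against 8.18% of all genes. In the brighter bins, with 11 and 9 transporter genes, none was past 1.5-fold, where 2.52% and 0.867% of all genes were. With normexp background correction, whose offset of 50 exceeds the signal of most of these probes and pulls dim ratios toward 0, none of the 7 was past 1.5-fold.

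**Figure D2:**
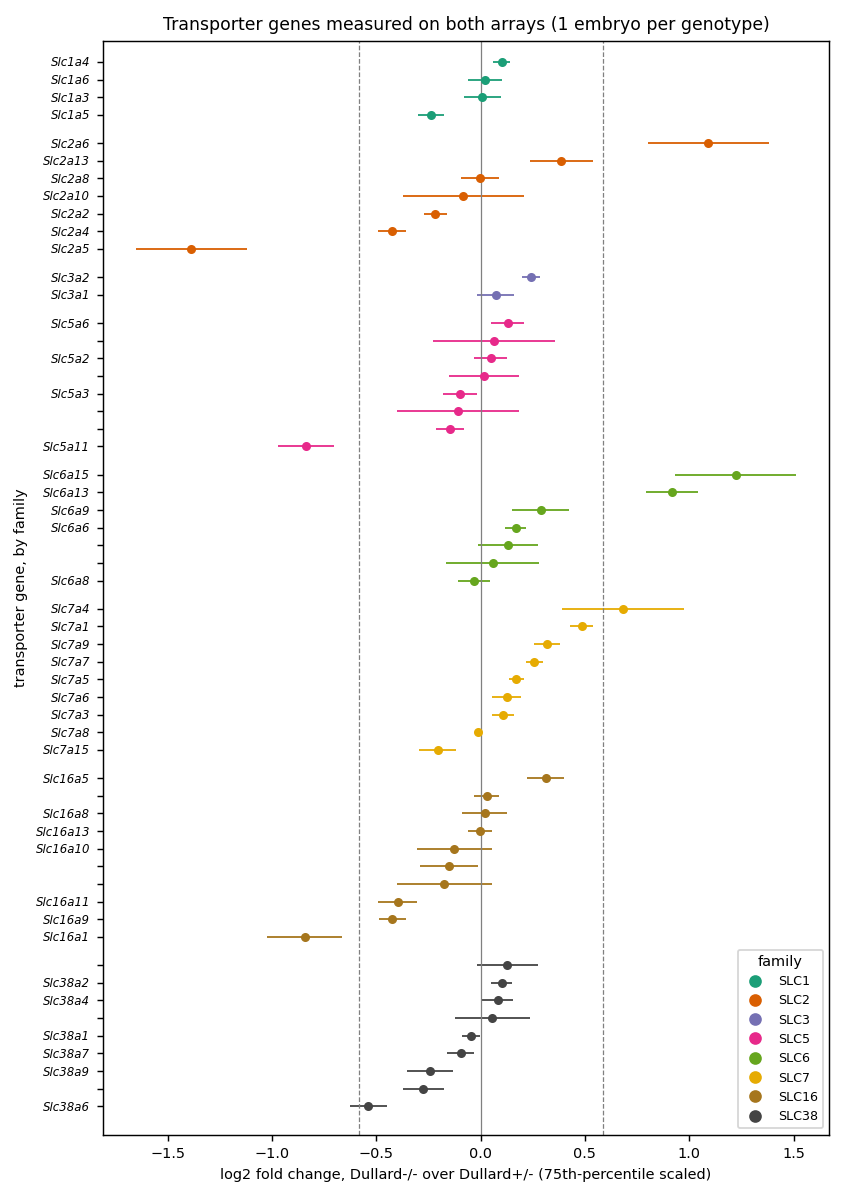
Difference of *Dullard*-/- from *Dullard*+/- as a log2 fold change (horizontal axis) for 56 of the 58 transporter genes measured on both arrays (vertical axis), grouped and coloured by family, 1 embryo per genotype. Bars are the error between replicate spots and dashed lines mark 1.5-fold. *Slc6a15* is highest at 1.22 and *Slc2a5* lowest at -1.39, and 49 of the genes plotted lie between the dashed lines. Genes described in the text are labelled.

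In SLC2 the measured genes went both ways, 2 higher and 5 lower, with a median of -0.08 that turned to 0.0086 with quantile normalization and 0.0033 with loess. *Slc2a5* encodes GLUT5, the fructose transporter. Its single probe (NM_019741) had signals of 25.3 (*Dullard*+/-) and 8.96 (*Dullard*-/-), 2.61-fold lower after scaling (-1.39 ± 0.27). *Slc2a6*, an intracellular hexose carrier, has a pair of probes that disagreed. One had signals of 7.44 (*Dullard*+/-) and 14.7 (*Dullard*-/-), at 1.09 ± 0.29, and the other had 10.14 and 6.78 and was above background in the *Dullard*+/- embryo alone, at least 1.29-fold lower. When both probes were averaged without a filter on dim probes, *Slc2a6* was at 0.31. *Slc2a2*, the low-affinity glucose transporter GLUT2, had signals of 704 and 560 (-0.22 ± 0.06). *Slc2a4*, the insulin-responsive GLUT4, was at -0.42 ± 0.07 over 9 spots, with signals of 29.4 and 20.3. *Slc2a13*, a proton-coupled myo-inositol transporter, was at 0.39 ± 0.15, and *Slc2a8* and *Slc2a10* were at -0.003 and -0.08. Of the hexose transporters that were left out of the set, *Slc2a1* (GLUT1) was at -0.12 ± 0.04 and *Slc2a3* (GLUT3) also at -0.12 ± 0.04.

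The SLC5 genes were split evenly, 4 higher and 4 lower around a median of -0.04. That median was above 0 with quantile normalization (0.015), loess (0.027), no filter on dim probes (0.049) and normexp (0.060). All but *Slc5a11* lay within 1.2-fold. *Slc5a11* encodes SMIT2, a sodium-coupled transporter of myo-inositol. Its probes (NM_146198) both gave a lower signal in the *Dullard*-/- embryo, 15.6 against 34.8 on one and 28.0 against 46.9 on the other, and the mean was 1.78-fold lower (-0.84 ± 0.13). *Slc5a3*, the other sodium-coupled myo-inositol carrier of the family, was at -0.10 ± 0.08 over a pair of probes that gave nearly the same ratio. *Slc5a2*, a kidney glucose transporter, was at 0.05, and *Slc5a6*, which takes up the vitamins biotin and pantothenate, was highest at 0.13 ± 0.08. *Slc5a4a*, which the rule does not take because of the letter in its symbol, was at -0.53 ± 0.22.

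In SLC16, 7 of 11 genes were lower and 4 higher, with a median of -0.13 that turned to 0.019 without the filter on dim probes and 0.0090 with normexp. *Slc16a1* encodes MCT1, which carries lactate and pyruvate with a proton. Its single probe (NM_009196) had signals of 47.7 (*Dullard*+/-) and 24.6 (*Dullard*-/-), 1.79-fold lower (-0.84 ± 0.18). *Slc16a9* was at -0.42 ± 0.06 with both of its probes lower, and *Slc16a11* at -0.40 ± 0.09. *Slc16a8*, another lactate carrier, was at 0.02 ± 0.11, while *Slc16a7* was at background in both embryos. *Slc16a10*, a carrier of aromatic amino acids, was at -0.13 ± 0.18. The highest was *Slc16a5* (0.31 ± 0.09), whose probes gave 1.06-fold and 1.45-fold. *Slc16a3* (MCT4), left out of the set, was higher on both probes, from 1981 to 2520 and from 1758 to 2312, with a mean of 0.48 ± 0.03. The partners that bring MCTs to the cell surface, *Bsg* (basigin) and *Emb* (embigin), were at -0.07 ± 0.05 and -0.11 ± 0.04.

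The upstream sequences of the lowest hexose and monocarboxylate carriers are shown because these genes lead the lower side, each as the 250 bases before the gene's start (RefSeq, GRCm38.p6). Capitals mark CACGTG, the E-box, which reads the same on both strands. Of the 27025 annotated genes with such a window, 6.86% hold it there. The *Slc16a1* window lies at chr3:104638414-104638663 on the plus strand and holds the motif from 200 to 195 bases before the start. The *Slc2a5* window lies at chr4:150119094-150119343 on the plus strand and holds neither this motif nor TGATGNAA, the core of a composite site of ATF4 in amino acid response genes.
Slc16a1: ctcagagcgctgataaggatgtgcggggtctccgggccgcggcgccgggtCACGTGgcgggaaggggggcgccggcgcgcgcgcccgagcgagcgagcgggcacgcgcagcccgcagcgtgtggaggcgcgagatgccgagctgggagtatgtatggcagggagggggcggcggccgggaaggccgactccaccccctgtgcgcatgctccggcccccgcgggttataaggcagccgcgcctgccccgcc
Slc2a5: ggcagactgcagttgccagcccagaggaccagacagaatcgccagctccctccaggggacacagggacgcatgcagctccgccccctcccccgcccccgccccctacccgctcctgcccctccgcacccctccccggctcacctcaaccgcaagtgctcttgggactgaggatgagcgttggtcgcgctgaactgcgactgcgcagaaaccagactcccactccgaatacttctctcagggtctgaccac
A match is a run of letters and not a measured site. Only 60 of the 85 genes had an upstream window (70.6%). Of these 60, 9 hold CACGTG and 3 hold TGATGNAA on either strand, beside 6.86% and 3.91% of all genes with a window. The rest of the set has no window here, and whether the set differs from other genes was not tested.

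**Figure D3:**
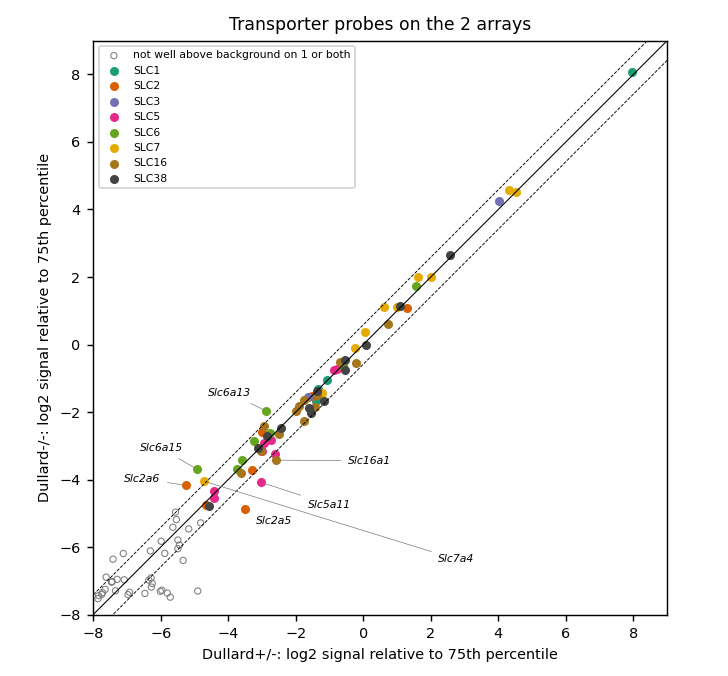
Log2 signal relative to the 75th percentile of the array for the probes of the transporter genes in the *Dullard*+/- embryo (horizontal axis) and the *Dullard*-/- embryo (vertical axis). Filled points are well above background on both arrays and coloured by family, open points are not, the solid line marks equal signal and dashed lines 1.5-fold. The 7 named genes past 1.5-fold lie in the lower left, and the bright probes follow the solid line.

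Among the amino acid carriers, 7 of 9 measured SLC7 genes were higher in the *Dullard*-/- embryo, beside 52.0% of all genes. Their median was 0.17 (0.01 over all genes), or 0.057 without scaling between the arrays. With 9 genes and 1 embryo per genotype, whether the family as a whole differs was not tested. *Slc7a1* encodes CAT1, the main carrier of arginine and lysine. Its signals were 440 (*Dullard*+/-) and 570 (*Dullard*-/-), 1.40-fold higher (0.49 ± 0.06). *Slc7a3*, a related cationic carrier, was at 0.11 ± 0.05. *Slc7a4*, a relative with no settled substrate, was past 1.5-fold (0.68 ± 0.29) on a probe with signals of 10.8 and 16.002. Its other probe, at background on both arrays, gave 3.50 and 2.10, and with both probes and no filter the value was 0.03.

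The heavy chain *Slc3a2* (4F2hc, CD98) had signals of 4614 (*Dullard*+/-) and 5043 (*Dullard*-/-), at 0.24 ± 0.04. Its light chains for large neutral amino acids were *Slc7a5* (LAT1), with probes at 0.36 and -0.02 and a mean of 0.17 ± 0.04, and *Slc7a8* (LAT2), at -0.01 ± 0.01 over 10 spots. Its light chains for cationic amino acids were *Slc7a7* (y+LAT1), from 5732 to 6339 (0.26 ± 0.04), and *Slc7a6* (y+LAT2), at 0.13 ± 0.07. The other heavy chain, *Slc3a1*, works with *Slc7a9* in the transport of cystine and dibasic amino acids in the kidney. *Slc3a1* was at 0.07 ± 0.09, or -0.04 without scaling, and *Slc7a9* at 0.32 ± 0.06, from 295 to 340. All of these pairs lay within 1.5-fold. *Slc7a15* was the lowest of the family, at -0.21 ± 0.09.

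The *Slc7a7* upstream window is shown for its match to TGATGNAA, in capitals. Of the 27025 annotated genes with a window, 3.91% hold this motif on either strand in the 250 bases before a start. The gene has 5 annotated windows. This one lies at chr14:54417945-54418194 on the minus strand, and the match runs from 141 to 134 bases before the start.
Slc7a7: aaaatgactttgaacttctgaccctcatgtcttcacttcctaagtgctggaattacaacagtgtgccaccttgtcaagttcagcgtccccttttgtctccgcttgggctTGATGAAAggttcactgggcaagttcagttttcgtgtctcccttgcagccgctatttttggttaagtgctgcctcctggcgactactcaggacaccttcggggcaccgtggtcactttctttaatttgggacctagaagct

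SLC1 genes stayed close to 0, with a median of 0.01 (-0.098 without scaling, and -0.24 without the filter on dim probes), and all 4 measured genes lay within 1.2-fold. *Slc1a4* (ASCT1), which exchanges small neutral amino acids, had signals of 71752 and 71139 (0.10 ± 0.04, and -0.01 without scaling). *Slc1a5* (ASCT2), a glutamine exchanger, was the lowest at -0.24 ± 0.06, with both probes lower. The glutamate transporters *Slc1a3* and *Slc1a6* were at 0.01 ± 0.09 and 0.02 ± 0.08.

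In SLC38, which imports glutamine, alanine and other small amino acids with sodium, 4 of the 9 measured genes were higher and 5 lower, at a median of -0.05, or 0.057 when the brightest probe stood for each gene. *Slc38a2* (SNAT2), the member that responds to amino acid shortage, gave 1684 and 1670 (0.10 ± 0.05). *Slc38a1* (SNAT1) was at -0.05 ± 0.04 over 3 probes and *Slc38a4* at 0.08 ± 0.07. *Slc38a6* was the lowest, with signals of 129 (*Dullard*+/-) and 82.1 (*Dullard*-/-), at -0.54 ± 0.09, just within 1.5-fold, and at -0.65 without scaling. *Slc38a9*, the lysosomal arginine sensor upstream of mTORC1, was lower on each of 3 probes, at -0.24 ± 0.11, and *Slc38a7*, a lysosomal glutamine carrier, was at -0.10 ± 0.06.

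In SLC6, 6 of 8 measured genes were higher (52.0% of all genes were), with a median of 0.15, or 0.037 without scaling. *Slc6a15* (B0AT2), a sodium-coupled carrier of branched-chain amino acids and proline, had the highest value of the set. Its single probe (NM_175328) had signals of 9.44 (*Dullard*+/-) and 20.4 (*Dullard*-/-), 2.33-fold higher (1.22 ± 0.29). *Slc6a13* (GAT2), a carrier of GABA and taurine, gave 38.8 and 67.7, 1.89-fold higher (0.92 ± 0.12). *Slc6a6* (taurine) was at 0.17 ± 0.05, *Slc6a8* (creatine) at -0.03 ± 0.08 and *Slc6a9* (glycine) at 0.29 ± 0.14.

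Across the 11 transporter genes with more than 1 measured probe, probes of a gene differed with a pooled SD of 0.19 (log2 fold change), beside 0.29 over 3747 genes. The ± leaves this spread out. Of the 7 genes past 1.5-fold, *Slc5a11* alone rests on more than 1 measured probe.

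Genes of the amino acid response and of amino acid sensing did not stand out by size. Of 13 measured genes of the response to amino acid shortage and of serine synthesis, 6 were higher and 7 lower at a median of -0.02, none past 1.5-fold. *Chac1* was highest at 0.34 ± 0.20 and *Ddit3* lowest at -0.30 ± 0.23. *Asns*, asparagine synthetase, was at 0.32 ± 0.05 and *Atf4*, the transcription factor of this response, at -0.27 ± 0.03. Of 16 genes of mTORC1 and its amino acid sensing at the lysosome, 9 were higher and 7 lower (median 0.04), from *Rraga* at -0.33 ± 0.05 to *Mtor* at 0.42 ± 0.09. Of 13 measured amino acid, peptide and vesicular transporters of other families, 8 were higher and 5 lower (median 0.07). *Slc15a2* (PEPT2), a proton-coupled peptide transporter, was the only one past 1.5-fold, at signals of 27.9 and 11.8 (-1.13 ± 0.24), and *Slc15a1* was highest at 0.28 ± 0.29. The accessory protein *Cltrn* (collectrin), which works with SLC6 carriers in the kidney, was at 0.30 ± 0.15, with probes at 0.61 and -0.01.

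A few of these transporter genes are neighbours of *Dullard* on chromosome 11. *Slc2a4* is the third protein-coding gene on one side, and *Slc16a11* and *Slc16a13* are the tenth and eleventh on the other. *Slc2a4* was at -0.42 ± 0.07 and *Slc16a11* at -0.40 ± 0.09, while *Slc16a13* was at -0.003 ± 0.06. Of the 30 protein-coding genes nearest to *Dullard*, 15 on each side, 26 were measured, with 11 higher, 15 lower and a median of -0.04. *Ybx2*, beside *Slc2a4*, was the lowest at -0.65, and the only one of the 26 past 1.5-fold. The *Dullard*-/- embryo may carry DNA of the embryonic stem cells around *Dullard*. The part of the position or of such DNA in these values was not tested.

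**Figure D4:**
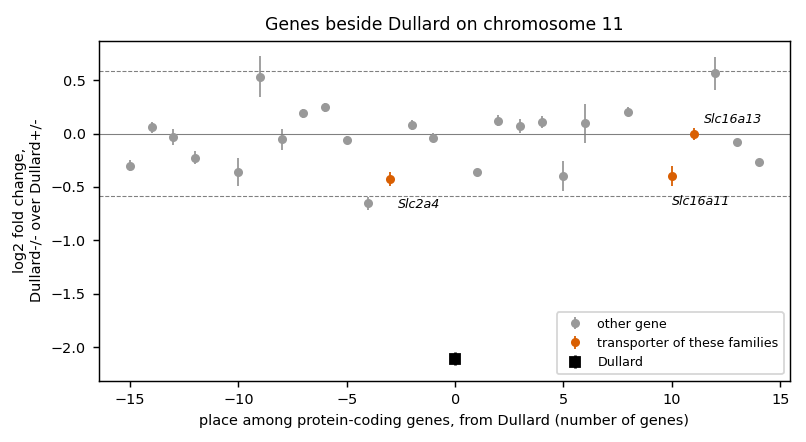
Difference of *Dullard*-/- from *Dullard*+/- as a log2 fold change (vertical axis) for the 26 measured protein-coding genes among the 15 nearest on either side of *Dullard*, by their place in gene order (horizontal axis). Bars are the error between replicate spots, dashed lines mark 1.5-fold, and 3 genes are transporters of these families. *Dullard* lies at -2.11 and *Slc2a4* at -0.42.

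Fewer cells of a type and less RNA per cell cannot be told apart in RNA of whole embryos. The list of epiblast and embryonic mesoderm had 5 of 8 genes higher (52.0% of all genes were) and a median of 0.25. Its summed scaled signals, in multiples of the 75th percentile, were 22.3 (*Dullard*+/-) and 26.4 (*Dullard*-/-). Sums here and below run over all genes of a list on the array, also those at background. The mesendoderm regulators *Mixl1* and *Eomes* of this list were at 1.39 ± 0.07 and 0.76 ± 0.04, and *T* (Brachyury) was at -1.19 ± 0.09. *Lhx1* and *Sox2* were at 0.50 ± 0.05 and 0.44 ± 0.06. *Pou5f1*, *Utf1* and *Mesp1* were at -0.06 ± 0.04, 0.07 ± 0.05 and -0.04 ± 0.06. The visceral endoderm list had a median of -0.0017, and its sums were 255 and 246. In it 7 genes were higher and 8 lower, from *Cubn* at -0.34 ± 0.03 to *Foxa2* at 0.63 ± 0.06, which was past 1.5-fold higher. For the list of extraembryonic ectoderm and trophoblast, of which 11 of 13 genes were measured, the sums were 12.7 and 13.2 and the members went both ways. In it 8 genes were lower and 3 higher, with *Ascl2* (-0.74 ± 0.09) and *Plac1* (-0.61 ± 0.09) past 1.5-fold lower, *Prl3d1* (1.07 ± 0.21) past 2-fold higher and *Tpbpa* at background in both embryos. Of 9 decidua genes 6 were measured, 5 of them higher, with a median of 0.17, sums of 1.89 and 2.07 and none past 1.5-fold. *Hoxa11* was above background in the *Dullard*-/- embryo alone, with signals of 5.96 and 20.9 over 10 spots, and *Prl8a2* and *Hoxa10* were at background in both embryos. The list set up for maternal red blood differed, with sums of 2.20 and 0.914. Of its members, *Hba-a1*, *Hba-a2* and *Alas2* were lower past 1.5-fold, and *Hbb-bs*, *Hbb-bt* and *Hbb-b2* were above background in the *Dullard*+/- embryo alone. Whether the RNA of these genes came from the mother or from the embryo was not tested. Of 5 primitive red blood genes 2 were measured, *Hbb-bh1* at -2.08 and *Gata1* at -1.30, and the sums over all 5 were 1.84 and 0.694. *Hbb-y* was above background in the *Dullard*+/- embryo alone, and *Hba-x* and *Klf1* were at background in both. Whether the genes of a list are particular to its cell type was not tested, nor was the part of any of these cell types in the transporter values.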

How the data were processed

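RNA of 1 *Dullard*+/- and 1 *Dullard*-/- embryo was measured on Agilent whole mouse genome arrays, both from the same slide and scan. The study and its labels differ on the amplification kit and the amount of RNA. The authors deposited spot intensity values from Agilent Feature Extraction 10.10, per the labels, after subtraction of the background. They also deposited a table of intensity values that equals these times a constant per array (4.91 and 5.20, with medians of 189 and 181) of no stated purpose. That table served as an alternative.

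Of 43020 spots that are not controls, 206 with an outlier mark were left out, none was saturated, and 31242 (*Dullard*+/-) and 29310 (*Dullard*-/-) were well above background. Accessions without versions were matched to a RefSeq table of GRCm38.p6, which named 30235 spots. Log2 signals were scaled to the 75th percentile, replicate spots were averaged per probe, and a gene's value is the mean of its probes above background on both arrays. The spot error pools the 40 nearest of 280 replicated probes. A gene above background on 1 array alone has a lower bound, its signal against the higher of the lowest signal above background on the dim array and its own there.

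With 1 array per genotype no test was run. Precision is limited by the number of arrays. The members, the lists and the sizes of 1.5-fold and 2-fold were chosen with earlier results of these data known. The rule for named genes takes those past 1.5-fold or above background on 1 array alone, the highest and lowest of each family and list, those whose probes disagree, the genes left out of the set and *Dullard*. Some genes that this rule takes are counted but not reported singly here. Others were named after their values were seen. Steps were tested on simulated arrays. The alternatives for normalization were loess (span 0.3), quantiles, the median in place of the 75th percentile, raw signals without scaling, normexp on median signals (offset 50) and the deposited table. Those for summarizing were all probes whatever their signal, the probe with most signal and averaging of linear folds. Python 3.11.15, numpy 2.4.6, pandas 2.3.3, statsmodels 0.14.6, R 4.3.3 and limma 3.58.1 were used.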

Additional observations from a re-analysis of the deposited data

How the results depend on the processing

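The 4 higher and 3 lower genes past 1.5-fold were the same genes under quantile normalization, loess, scaling to the median, the brightest probe, the deposited table of intensities and averaging of linear folds. With normexp none was past 1.5-fold or 2-fold in either direction, with 0 genes in each count. Few genes of any kind passed there: past 1.5-fold lay 0.650% of all genes on the higher side and 0.230% on the lower. The counts of 0 therefore do not set the transporter genes apart. The normexp offset pulls dim ratios toward 0, so this setting does not decide whether a dim gene differs. Shares of all genes past 2-fold are not given for the alternatives. Without a filter on dim probes, over 85 genes, 5 were at least 1.5-fold higher (5.99% of all genes were), of which 2 were among the 4, and 10 at least 1.5-fold lower (8.56% of all genes), with 5 at least 2-fold lower. Without scaling, which moved the median of all genes from 0.01 to -0.10, 3 genes were at least 1.5-fold higher (2.63% of all genes) and 4 lower (5.29%), 1 was at least 2-fold higher, and 29.3% of the measured transporter genes were higher instead of 55.2%. The median of the transporter genes was then -0.093, and 0.058 with scaling to the median, which moved all genes as well. It stayed within 0.03 of that over all genes under every alternative run. Family medians without scaling were -0.24 for SLC16, -0.20 for SLC2, -0.16 for SLC38, -0.15 for SLC5, 0.037 for SLC6 and 0.057 for SLC7. Without the filter on dim probes they were -0.24 for SLC1, 0.019 for SLC16 and -0.22 for SLC2. With normexp SLC16 was at 0.0090, and with the brightest probe SLC38 was at 0.057, and SLC1 was at -0.098 without scaling. The SLC2 median was 0.0086 with quantile normalization and 0.0033 with loess, and that of SLC5 was 0.015 and 0.027, 0.049 without the filter and 0.060 with normexp. The medians of SLC1, SLC2, SLC5, SLC16 and SLC38 thus changed sign under at least 1 alternative, and those of SLC3, SLC6 and SLC7 under none of the 9. All 7 genes past 1.5-fold kept their sign under the 9 alternatives, while *Slc1a4* and *Slc3a1* turned sign without scaling. The number of genes not above background on either array was 23, and 30 when 1 dim probe was enough. No paired analysis was possible because each genotype has 1 embryo and the labels carry no replicate numbers.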
